A study of Mus musculus with 13 samples.

Results

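The genes described here are 32 genes of muscle atrophy and autophagy, given as a list of names with no threshold on measured values, a list drawn up with earlier results of these data known. All 32 had a row in each of the 13 deposited gene tables, which hold 19838 genes. In vertebrates, skeletal muscle loses protein by 2 main routes. In the first, ubiquitin ligases such as Fbxo32 (atrogin-1) and Trim63 (MuRF1) mark muscle proteins for the proteasome, and FOXO transcription factors are known to switch on the genes of both ligases. In the second, autophagy, a kinase complex with ULK1 starts a membrane that LC3 and GABARAP proteins are attached to, cargo receptors bind to these proteins, and lysosomal cathepsins digest what is delivered. TFEB is a transcription factor known for switching on lysosome and autophagy genes.

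RNA of 2 tissues, aorta and gastrocnemius (a calf muscle), was taken from FVBxC57BL/6 mice at 88 weeks of age and was read as an amplicon panel on an Ion Torrent sequencer. The control group, Rosa26, had the genotype GFP-FOXM1dNdK-/-Rosa26-rtTAtg/+, which carries rtTA, the doxycycline-controlled transactivator, without the transgene. The FoxM1-dNdK group had the genotype GFP-FOXM1dNdKtg/+Rosa26-rtTAtg/+, and so carried a GFP-tagged form of FOXM1, a transcription factor of the cell division cycle, beside the same rtTA allele. There were 4 Rosa26 and 2 FoxM1-dNdK libraries of aorta, and 4 Rosa26 and 3 FoxM1-dNdK libraries of muscle. The sources used here give no sex, no doxycycline treatment and no sequencing run, and the labels do not say that the libraries of a group came from separate mice. The p-values therefore measure the spread between these libraries, which may be partly technical. Foxm1 itself was read at 2 to 24 counts in the Rosa26 aorta libraries, 2 to 5 in the FoxM1-dNdK aorta libraries, 1 to 3 in the Rosa26 muscle libraries and 0 to 3 in the FoxM1-dNdK muscle libraries. Whether its amplicon reads the transgene is not given in the sources used here, so Foxm1 does not check the genotype labels.

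Promoter sequence was matched to 25 of the 32 genes, as 28 windows from 250 bases before to 50 bases after a RefSeq start site (GRCm38.p6). They were searched on both strands for 3 motifs: GTAAACA, which FOXO and other forkhead factors bind, the E-box CACGTG, which TFEB and many other factors bind, and TCACGTGA, the core of the CLEAR element of TFEB, which contains the E-box. Fbxo32, Becn1, Atg12, Atg16l1, Map1lc3a, Bnip3l and Ctsb had no entry. GTAAACA was found in 1 of the 28 windows (3.57%), that of Trim63, and in 3.65% of all 32851 windows. The E-box was found in 8 windows (28.6%), of Klf15, Atg3, Atg5, Atg7, Bnip3, Ctsl, Ctsd and Lamp1, and in 7.15% of all windows. TCACGTGA was found in 3 (10.7%), of Klf15, Atg3 and Ctsd, and in 0.974% of all windows. A match describes the letters and is not evidence of binding. The 250 bases before the start site are shown for 4 genes as examples of the motifs, while Klf15, with 3 E-boxes, is not shown. They are Trim63 (chr4:134314870-134315119, plus strand), the gene of the 32 with the largest fitted difference between the tissues, Atg3 (chr16:45158579-45158828, plus strand), which differed widely among libraries of the same group, and the lysosomal genes Ctsd (chr7:142387828-142388077, minus strand) and Lamp1 (chr8:13158911-13159160, plus strand). Each is printed 5′ to 3′ on the strand of its gene, and capitals mark the forkhead motif in Trim63, where it lies on the opposite strand, and the E-boxes in the others.
Trim63: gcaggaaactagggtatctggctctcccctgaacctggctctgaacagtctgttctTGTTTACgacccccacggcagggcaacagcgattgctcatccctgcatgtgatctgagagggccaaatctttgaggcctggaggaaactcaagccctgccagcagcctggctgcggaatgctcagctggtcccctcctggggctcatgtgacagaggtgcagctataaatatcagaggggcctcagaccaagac
Atg3: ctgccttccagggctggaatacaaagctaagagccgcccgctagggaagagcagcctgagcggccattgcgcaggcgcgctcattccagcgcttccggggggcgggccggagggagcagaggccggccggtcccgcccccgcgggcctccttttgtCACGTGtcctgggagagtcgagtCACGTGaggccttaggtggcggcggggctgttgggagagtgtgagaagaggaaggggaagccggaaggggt
Ctsd: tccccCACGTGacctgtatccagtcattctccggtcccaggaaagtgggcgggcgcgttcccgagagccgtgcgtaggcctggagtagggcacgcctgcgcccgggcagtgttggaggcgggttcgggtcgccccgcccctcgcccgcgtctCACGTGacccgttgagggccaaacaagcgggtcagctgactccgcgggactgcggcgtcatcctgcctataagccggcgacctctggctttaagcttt
Lamp1: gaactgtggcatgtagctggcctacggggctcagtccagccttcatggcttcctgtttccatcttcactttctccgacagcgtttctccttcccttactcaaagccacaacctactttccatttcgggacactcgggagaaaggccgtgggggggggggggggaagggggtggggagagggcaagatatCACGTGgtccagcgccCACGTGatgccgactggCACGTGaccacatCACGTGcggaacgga
In these windows the forkhead motif of Trim63 began 194 bases before the start site. The Atg3 E-boxes began at -94 and -71, and the second lies in TCACGTGA. The Ctsd E-boxes began at -245 and -98, the second again in TCACGTGA, and the 4 E-boxes of Lamp1 lay between -61 and -15.

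Libraries held between 3919526 and 13683952 reads counted in genes. A level below is in CPM, a gene's count relative to the library total after scaling all 13 libraries by the trimmed mean of M values (TMM). Each gene is read by its own amplicon, so levels of different genes are not comparable. The lowest level treated as detected, 3 counts, equals 0.168 to 0.631 CPM depending on the library. The libraries were not pure tissue. All 6 aorta libraries held RNA of brown fat (Ucp1 3843 to 6921 CPM, and 10799 to 14119 CPM summed over 9 brown fat markers, against 2458 to 3994 CPM in muscle). Most of the sum in muscle came from Cox8b (1802 to 2866 CPM) and Cox7a1 (502 to 752 CPM). The sums thus do not compare the brown fat of the tissues. Ppargc1a stood at 31.1 to 88.5 CPM in aorta and 66.0 to 159 CPM in muscle, and Zic1 at no more than 0.138 CPM in aorta. The 8 smooth muscle markers summed to 183 to 399 CPM in aorta and 247 to 355 CPM in muscle. In aorta Acta2 stood at 64.5 to 245 CPM, Myh11 at 52.5 to 82.0 CPM and Cnn1 at 4.84 to 12.9 CPM. In muscle they stood at 49.3 to 137, 30.0 to 86.0 and 0.747 to 5.98 CPM. Actg2 stood at 3.68 to 13.7 CPM in aorta and 0.559 to 2.68 CPM in muscle. A large part of the sum in muscle was Smtn, at 106 to 181 CPM there and 31.9 to 62.0 CPM in aorta. These sums thus do not compare the smooth muscle of the tissues. Tagln was at or near 0 in both tissues (at most 0.0561 CPM in aorta and 0.160 CPM in muscle). Aorta Rosa26 1, Rosa26 2 and FoxM1-dNdK 2 held heart muscle RNA (Myh6 666, 274 and 546 CPM, and 1019 to 2365 CPM summed over 11 heart markers). The other 3 aorta libraries were at 0 to 1.45 CPM for Myh6 and 3.36 to 12.3 CPM for the sum. Muscle FoxM1-dNdK 3 held fat RNA (Ucp1 768 CPM, against 0.373 to 7.66 CPM in the other 6 muscle libraries). The 9 white and general adipocyte markers summed to 15493 CPM in it, to 733 to 1514 CPM in the other 6, and to 14208.6 to 21292.5 CPM in aorta. The summed level of 11 skeletal muscle markers was 14.4 to 62.3 CPM in aorta and 218747 to 349775 CPM in muscle. In bulk RNA, fewer cells of a type and less RNA per cell cannot be told apart.

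Of the 32 genes, 28 passed the filter on low counts and were tested. The other 4 had at most 5 counts in any library and are not described further. They are Map1lc3b, the LC3 gene most used as an autophagy marker (at most 2 counts), Gabarapl2 and Bnip3l (0 counts in all 13 libraries) and Vcp, an ATPase that pulls ubiquitinated proteins out of complexes (at most 5). In the reference transcripts, 36.3% of the stretches of 100 bases of Vcp also occur in other genes, as do 14.0% for Bnip3l, 6.80% for Gabarapl2 and 2.88% for Map1lc3b. Such stretches also make up 30.7% for Becn1, 30.2% for Ctsd, 24.6% for Bnip3 and 23.5% for Ctsl, which had counts in every library. The positions of the amplicons are not given in the sources used here, so the part of shared sequence in these counts was not tested, and the levels of genes with shared stretches are uncertain to that extent.

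**Figure D1:**
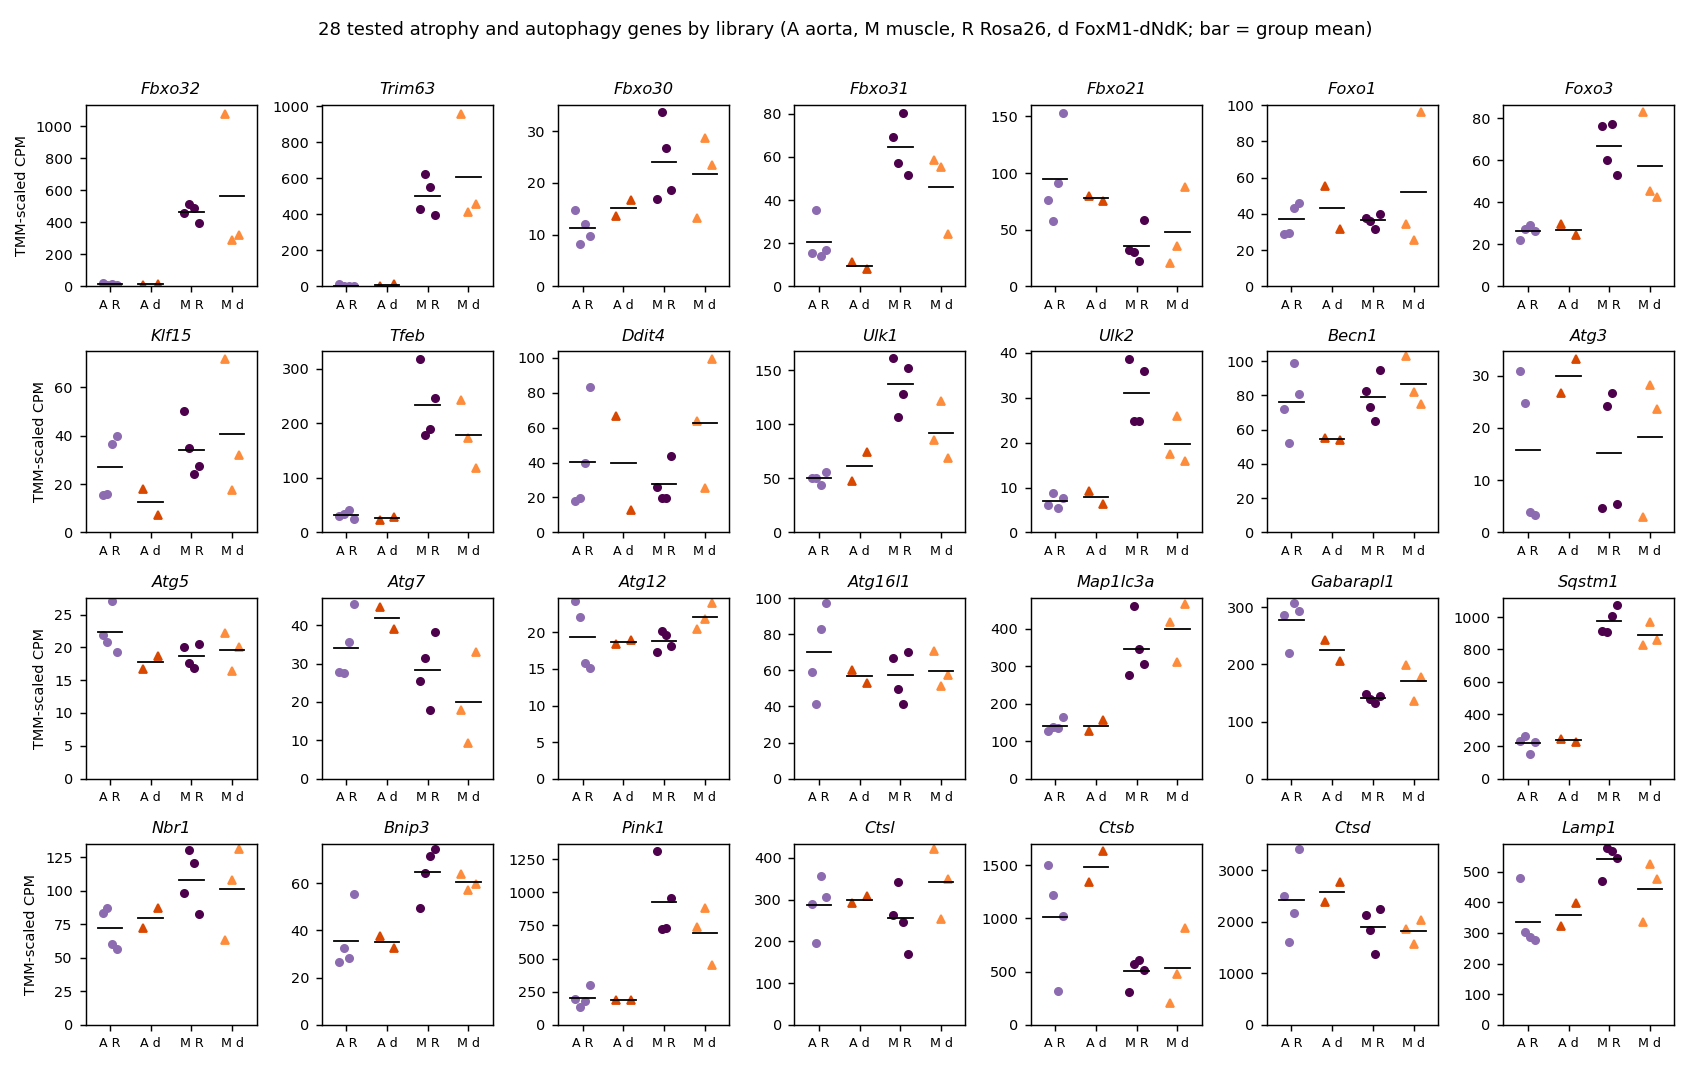
TMM-scaled CPM (vertical axis, from 0, a scale of its own for each gene) of the 28 tested genes in the 13 libraries, by tissue and genotype. Points are libraries and bars are group means. Fbxo32, Trim63, Tfeb, Sqstm1 and Pink1 are higher in every muscle library than in any aorta library, and Atg3 falls into a high and a low set within 3 of the 4 groups.

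The first comparison set aorta against muscle in the control mice. Of the 28 genes, 14 were lower in aorta and 2 were higher at an adjusted p under 0.05, while 12 did not pass. Over all 11058 genes tested, 27.5% were called lower in aorta and 31% higher. The median log2 difference was -0.46 over the 28 genes and 0.08 over all genes. The direction of many genes depends on the scaling, whose factors were 1.21 to 1.47 in aorta and 0.720 to 0.913 in muscle. With library size alone, the median of all genes moved to 0.96, and 12 of the 28 genes were then called higher in aorta and 7 lower, against 82.8% of all called genes higher in place of 53.0%. Fbxo32, Trim63, Tfeb, Sqstm1, Pink1, Ulk1 and Ulk2 were called lower, and Gabarapl1 and Fbxo21 higher, under that scaling too. Foxo3, Map1lc3a, Fbxo31, Fbxo30 and Bnip3 then kept their sign and lost the call (adjusted p of 0.0584 to 0.93), and Lamp1 and Nbr1 changed sign without a call.

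Of the 5 ubiquitin ligase genes, 4 were lower in aorta and 1 was higher. Fbxo32 (GRCm38, chromosome 15, 58175879 to 58214892) stood at 455, 514, 489.6 and 398 CPM in muscle Rosa26 1 to 4 and at 17.6, 9.65, 11.5 and 7.36 CPM in aorta Rosa26 1 to 4. The 2 tissues did not overlap, and Fbxo32 was 39.8-fold lower in aorta (log2 difference -5.32 ± 0.30 SE, adjusted p = 3.25e-07). Trim63 stood at 429, 627, 553 and 396 CPM in the same muscle libraries and at 10.4, 4.10, 0.0690 and 0 CPM in the aorta libraries. Aorta Rosa26 3 and 4 were thus below the floor of 3 counts, and the fitted log2 difference was -7.04 ± 1.07 (adjusted p = 0.000281). The counts of Trim63 in aorta followed Myh6. The 3 aorta libraries with heart RNA held 138, 73 and 178 Trim63 counts and the 3 without it held 1, 0 and 0. Pooled over genotypes, Trim63 was 60.4-fold lower in the aorta libraries with heart RNA than in muscle (95% counting interval 54.6 to 66.9). Against the 3 other aorta libraries the ratio was 15977 (2867 to 631068), which rests on 1 count. For Fbxo32 the same ratios were 33.8 (31.2 to 36.7) and 44.1 (39.5 to 49.4), so its counts in aorta differed 1.31-fold (lower bound 1.14) between libraries with and without heart RNA. The intervals cover counting error only.

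**Figure D2:**
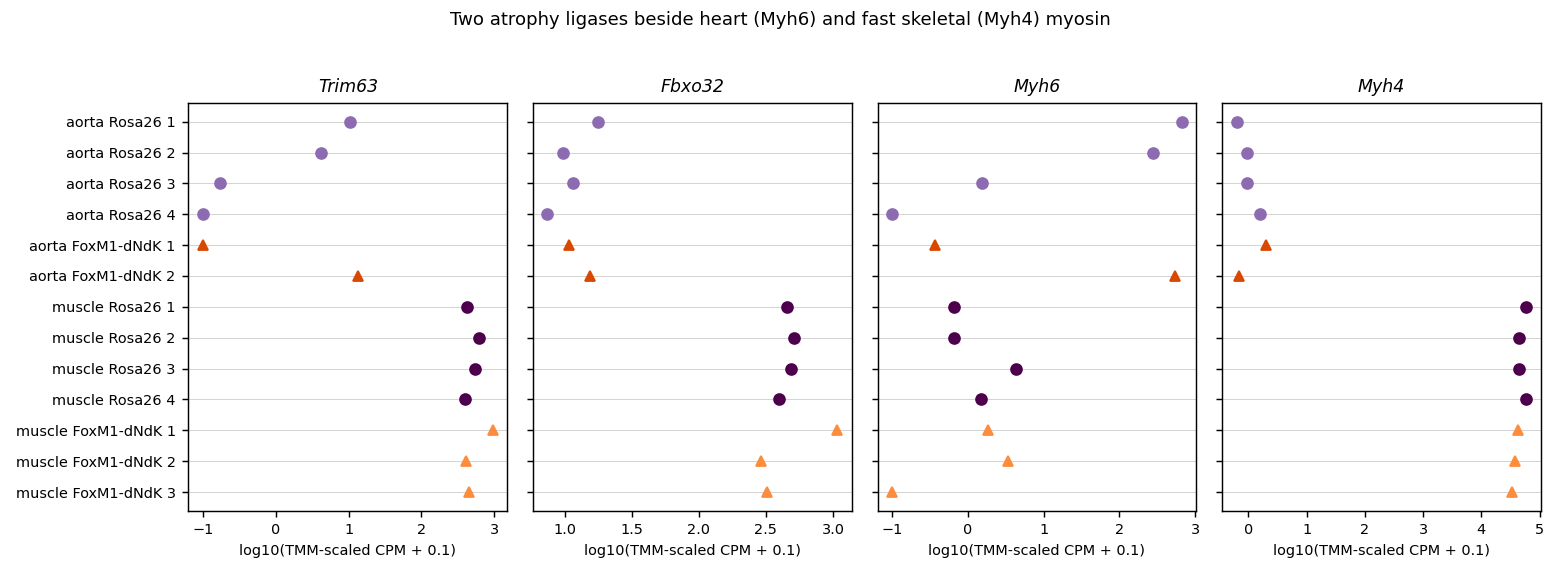
Levels of Trim63, Fbxo32, Myh6 (heart myosin) and Myh4 (fast skeletal myosin) in each of the 13 libraries, as log10 of TMM-scaled CPM plus 0.1, with an axis of its own in each panel. Among aorta libraries, the 3 with Trim63 above 4 CPM are the 3 with Myh6 of 274 CPM or more, while Fbxo32 lies between 7.36 and 17.6 CPM in all 6.

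The other ligase genes differed less. Fbxo31, a substrate receptor of an SCF ligase, stood at 69.3, 57.0, 80.3 and 51.8 CPM in Rosa26 muscle and at 15.5, 35.5, 14.2 and 16.8 CPM in Rosa26 aorta, 3.14-fold lower (-1.65 ± 0.30, adjusted p = 0.00099). Fbxo30 (MUSA1), induced in muscle by denervation, stood at 16.8 to 33.8 CPM in muscle and 8.13 to 14.9 CPM in aorta (-1.09 ± 0.29, adjusted p = 0.00807), and missed the threshold in the 4 Rosa26 libraries with more than 5.7% unmapped reads, a line drawn after the data had been seen (-0.67, adjusted p = 0.114). Fbxo21 (SMART) ran the other way. It stood at 31.9, 30.3, 22.4 and 58.3 CPM in muscle and at 75.9, 57.4, 90.9 and 153 CPM in aorta, 2.64-fold higher (1.40 ± 0.37, adjusted p = 0.00752), although muscle Rosa26 4 lay above aorta Rosa26 2.

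Of the 5 transcription factors and stress regulators, 2 were lower in aorta and 3 did not pass. Tfeb stood at 318, 179, 190.0 and 247 CPM in Rosa26 muscle and at 29.6, 34.8, 40.9 and 24.8 CPM in Rosa26 aorta. The tissues did not overlap, and the difference was 7.12-fold (-2.83 ± 0.26, adjusted p = 7.73e-06). Foxo3, a FOXO factor that drives atrophy genes, stood at 53.1 to 77.4 CPM in muscle and 21.9 to 29.2 CPM in aorta, 2.54-fold lower (-1.35 ± 0.19, adjusted p = 0.000203). Foxo1, its close relative, stood at 31.7 to 39.9 CPM in muscle and 29.0 to 45.8 CPM in aorta (0.03 ± 0.21, 95% interval -0.39 to 0.45). Klf15, a glucocorticoid-induced factor, gave -0.33 ± 0.37 (95% interval -1.05 to 0.39) and turned to 0.52 with library size alone. In the libraries with less than 5.7% unmapped reads Klf15 was called lower in aorta (-0.95, adjusted p = 0.0138). Ddit4 (REDD1), a stress-induced inhibitor of mTORC1, spread from 18.1 to 83.1 CPM over the 4 Rosa26 aorta libraries and did not pass (0.54 ± 0.49). Without the aorta libraries with heart RNA it was called higher in aorta (1.14, adjusted p = 0.0292). With library size alone Foxo1 and Ddit4 were called higher.

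Both ULK kinase genes were lower in aorta. Ulk1 stood at 162, 106, 128 and 152 CPM in Rosa26 muscle and at 50.4, 50.3, 43.4 and 56.4 CPM in Rosa26 aorta, 2.73-fold lower (-1.45 ± 0.19, adjusted p = 0.000103). Ulk2 stood at 24.7 to 38.7 CPM in muscle and 5.45 to 8.70 CPM in aorta, 4.46-fold lower (-2.16 ± 0.25, adjusted p = 4.65e-05), and neither gene overlapped between the tissues. Becn1, of the lipid kinase complex that acts after ULK1, did not pass (-0.05 ± 0.23, 95% interval -0.50 to 0.40), but was called higher with library size alone (0.82, adjusted p = 0.00757).

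None of the 5 genes for attaching LC3 and GABARAP to membranes was called in edgeR or DESeq2, and none had an unadjusted p under 0.05 in edgeR. Atg5, Atg12 and Atg16l1, whose proteins form the ligase complex, gave log2 differences of 0.26 ± 0.20, 0.04 ± 0.21 and 0.30 ± 0.29. Atg7, the activating enzyme, gave 0.27 ± 0.27. Atg3, the conjugating enzyme, gave 0.04 with an SE of 0.76. Without the aorta libraries with heart RNA Atg3 was called lower in aorta (-2.06, adjusted p = 0.0416), and the 2 aorta libraries left there are the 2 with low Atg3 described at the end. With library size alone, Atg5, Atg7, Atg12 and Atg16l1 were called higher in aorta.

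The 2 measured genes of the LC3 and GABARAP family moved in opposite directions. Map1lc3a stood at 276, 461, 346 and 306 CPM in Rosa26 muscle and at 126, 138, 134 and 164 CPM in Rosa26 aorta, 2.47-fold lower (-1.30 ± 0.21, adjusted p = 0.000395). Gabarapl1 stood at 148, 139.9, 132 and 144 CPM in muscle and at 287, 220.2, 308 and 294 CPM in aorta, 1.98-fold higher (0.98 ± 0.18, adjusted p = 0.000909). In each gene the 4 muscle libraries lay wholly on 1 side of the 4 aorta libraries. With library size alone Map1lc3a kept its sign but did not pass (adjusted p = 0.0726).

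All 4 measured genes of cargo receptors and mitophagy were lower in aorta. Sqstm1 (p62), which binds ubiquitinated cargo, stood at 914, 909, 1010 and 1076 CPM in Rosa26 muscle and at 231, 265, 152 and 229 CPM in Rosa26 aorta, 4.47-fold lower (-2.16 ± 0.21, adjusted p = 1.43e-05). Pink1, the kinase that marks damaged mitochondria, stood at 1308, 725, 733 and 955 CPM in muscle and at 194, 135, 182 and 297 CPM in aorta, 4.59-fold lower (-2.20 ± 0.30, adjusted p = 0.000131). Neither gene overlapped between the tissues. Bnip3, a mitophagy receptor induced by low oxygen, differed less (-0.87 ± 0.26, adjusted p = 0.0155) and gave -0.02 with library size alone. Bnip3 also lost the call without the aorta libraries with heart RNA (adjusted p = 0.0913) and in the libraries with more than 5.7% unmapped reads (adjusted p = 0.218). Nbr1, a receptor related to p62, passed narrowly (-0.59 ± 0.21, adjusted p = 0.0354) and turned to 0.29 with library size alone. Nbr1 was lost without aorta Rosa26 3, aorta Rosa26 4, muscle Rosa26 2 or muscle Rosa26 3, with adjusted p of 0.0758 to 0.0892 there, and in 1 fit of all 13 libraries (0.0516).

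Of the 4 lysosome genes, 1 was lower in aorta. Lamp1, a lysosomal membrane protein, stood at 471, 576, 568 and 545 CPM in Rosa26 muscle and at 478, 302, 285 and 278 CPM in Rosa26 aorta (-0.69 ± 0.22, adjusted p = 0.0194). Lamp1 turned to 0.19 with library size alone and missed the threshold when aorta and muscle libraries that share a number in their deposited names were blocked (-0.64, adjusted p = 0.0523) or only the libraries with less than 5.7% unmapped reads were fitted (-0.60, adjusted p = 0.0734). The cathepsin gene Ctsb stood at 311, 571, 608 and 515 CPM in muscle and at 1506, 1216, 313 and 1025 CPM in aorta. Aorta Rosa26 3 thus lay among the muscle libraries, and Ctsb missed the threshold (1.01 ± 0.41, adjusted p = 0.0549). Ctsb was called higher in aorta without that library (1.30, adjusted p = 0.00281) and in DESeq2 (0.98, adjusted p = 0.0302). It was also called higher with the side of the 5.7% line in unmapped reads as a covariate (0.95, adjusted p = 0.0292) and in the libraries with less than 5.7% of them (1.16, adjusted p = 0.00265). Without the aorta libraries with heart RNA it gave 0.40 (adjusted p = 0.449). Ctsd and Ctsl did not pass (0.36 ± 0.27 and 0.17 ± 0.26). With library size alone all 3 cathepsin genes were called higher.

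The same tissues were compared in the FoxM1-dNdK mice, with 2 aorta and 3 muscle libraries and none shared with the first comparison. There 6 of the 28 genes were lower in aorta and 0 were higher, against 10.5% of 11426 genes called lower and 5.22% called higher. The 6 were Fbxo32, Fbxo31, Tfeb, Map1lc3a, Sqstm1 and Pink1, and each was also lower in the Rosa26 mice. Fbxo32 stood at 1078, 292 and 322 CPM in muscle FoxM1-dNdK 1 to 3 and at 10.6 and 15.4 CPM in aorta FoxM1-dNdK 1 and 2 (-5.42 ± 0.85, adjusted p = 0.0132). Tfeb stood at 243, 174 and 119 CPM in muscle and 22.9 and 28.8 CPM in aorta (-2.76 ± 0.42, adjusted p = 0.0125). Sqstm1 stood at 828, 971 and 862 CPM in muscle and 248 and 227 CPM in aorta (-1.87 ± 0.33, adjusted p = 0.0189). None of these 3 overlapped between the tissues. Fbxo31, Pink1 and Map1lc3a gave -2.24 ± 0.49, -1.87 ± 0.42 and -1.47 ± 0.34 (adjusted p of 0.0313, 0.0329 and 0.0365). Trim63 stood at 958, 415 and 455 CPM in muscle and at 0 and 13.3 CPM in aorta, and missed the threshold (-6.50 ± 1.91, adjusted p = 0.0658). Of the other 21 genes, Bnip3, Ulk2, Foxo3 and Becn1 lay lower in aorta without overlap (-0.75 ± 0.24, -1.30 ± 0.37, -1.05 ± 0.39 and -0.64 ± 0.27, adjusted p of 0.0606 to 0.153), and so did Atg12 (-0.21 ± 0.25). Ctsb, Atg7, Ctsd and Gabarapl1 lay higher without overlap (1.54 ± 0.61, 1.09 ± 0.50, 0.53 ± 0.37 and 0.42 ± 0.30, adjusted p of 0.131 to 0.364). These 9 did not pass the test. With the 6 called genes and Trim63, 12 of the 28 genes thus lay lower and 4 higher in aorta without overlap, against 30.2% and 27.5% of all genes. The last 12 overlapped between the tissues and ran from -1.66 ± 0.71 for Klf15 to 0.75 ± 0.77 for Atg3, with Fbxo21 at 0.74 ± 0.56, Ddit4 at -0.62 ± 0.80, Ulk1 at -0.56 ± 0.36 and Fbxo30 at -0.49 ± 0.38. Nbr1, Lamp1, Foxo1, Ctsl, Atg5 and Atg16l1 lay between -0.31 and -0.04. The median over the 28 genes was -0.53 and over all genes -0.01, and with library size alone the latter was 0.58 and 4 of the 28 genes were called lower.

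This comparison rests on few libraries. Without aorta FoxM1-dNdK 1 or 2, all 6 genes lost the call, and the 1 gene then called was Trim63, which was not among them (-5.51 and -15.48, adjusted p of 0.0451 and 0.00996). Fbxo32 gave -5.19 and -5.71 there (adjusted p of 0.102 and 0.0867) and Tfeb -2.62 and -2.94 (adjusted p of 0.113 and 0.0905). The lone aorta library left in each of these fits is assumed to vary like the muscle libraries, and the second of these Trim63 values rests on a library with 0 counts. The number of the 28 genes called was 3 without muscle FoxM1-dNdK 1, 2 without muscle FoxM1-dNdK 2, and 10 without muscle FoxM1-dNdK 3, the library with fat RNA. The number of all genes called also moved widely over the fits with 1 library left out, as given under processing. These counts alone are thus no result about the 28 genes. In the last case Ctsb, Atg7 and Fbxo21 were called higher in aorta (log2 differences of 2.16, 1.64 and 1.47). A gene called in 1 genotype and not in the other is not thereby shown to differ between them.

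**Figure D3:**
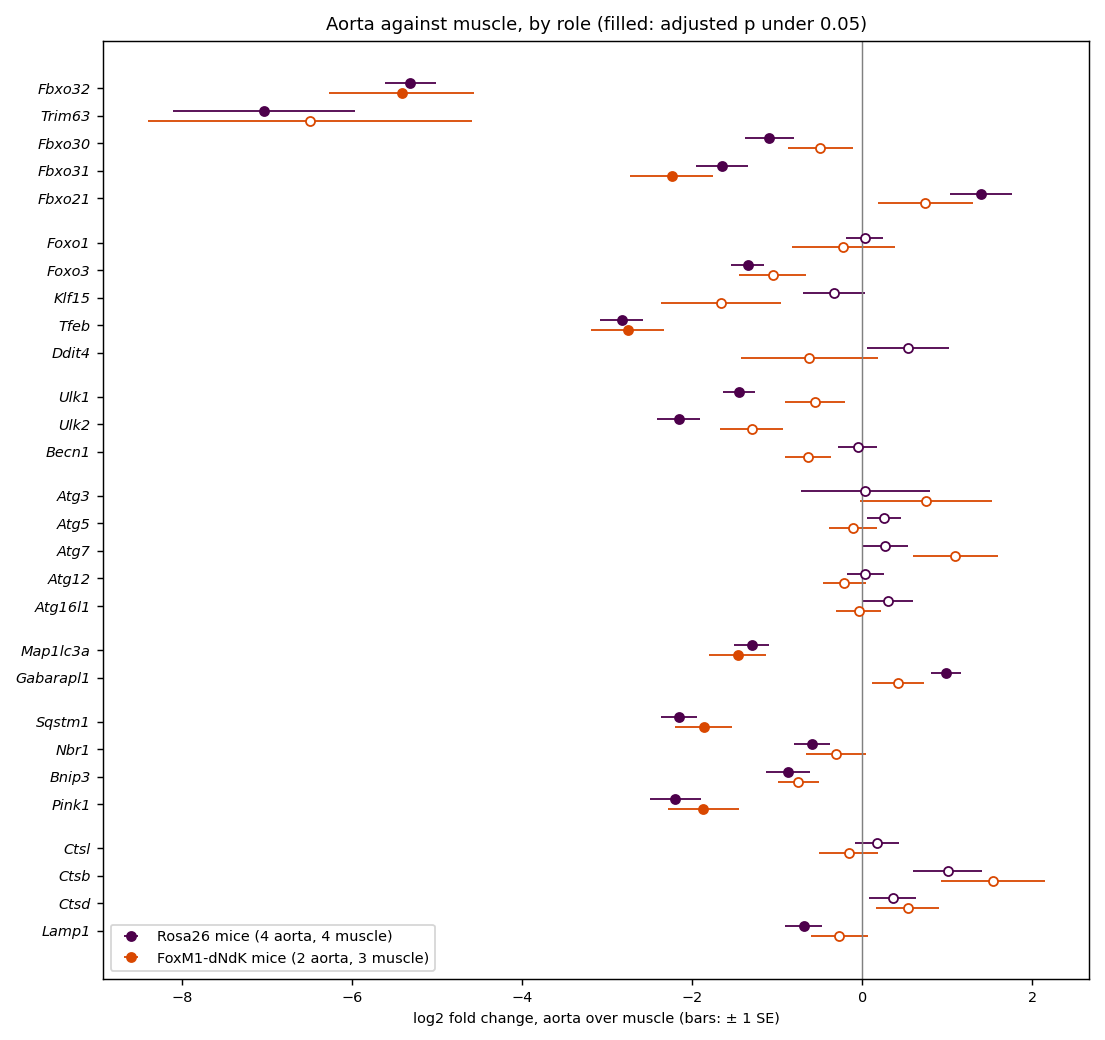
Log2 fold change of aorta over muscle (horizontal axis, negative where aorta is lower) with 1 SE to each side, for the 28 tested genes in order of their roles, in Rosa26 and FoxM1-dNdK mice. Filled points have an adjusted p under 0.05: 16 in Rosa26 and 6 in FoxM1-dNdK mice, and Fbxo32 and Trim63 lie farthest from 0.

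The next comparison asked whether FoxM1-dNdK mice differed from Rosa26 mice in aorta. None of the 28 genes passed in edgeR or in DESeq2, and the smallest adjusted p among them in edgeR was 0.757. Over all 11920 genes tested, edgeR called 0.00839%, which is 1 gene, and DESeq2 called 13, while 713 genes and 1 of the 28 had an unadjusted p under 0.05 in edgeR. Fbxo31 stood at 11.2 and 7.89 CPM in FoxM1-dNdK 1 and 2 and at 15.5, 35.5, 14.2 and 16.8 CPM in Rosa26 1 to 4 (-1.08 ± 0.44, unadjusted p = 0.0396, adjusted p = 0.757). The 2 groups did not overlap, and without aorta Rosa26 2 the difference was -0.66. Klf15 stood at 17.8 and 7.30 CPM against 15.5, 15.9, 36.5 and 40.0 CPM (-1.07 ± 0.55, adjusted p = 0.757), a difference of -0.27 with the share of unmapped reads as a covariate, and of -1.88 and -0.54 without FoxM1-dNdK 1 and 2. Atg5 stood at 16.8 and 18.7 CPM against 21.9, 20.8, 27.1 and 19.3 CPM (-0.31 ± 0.25, adjusted p = 0.793). Fbxo31 and Atg5 were the 2 of the 28 genes whose groups did not overlap, against 17.2% of all genes. The other genes of smallest p were Becn1 (-0.45 ± 0.29), Fbxo30 (0.45 ± 0.31) and Ulk1 (0.31 ± 0.24), with adjusted p of 0.757 to 0.79. Becn1 gave -0.14 with the same covariate and -0.27 without aorta Rosa26 3, where Atg5 gave -0.17. Ulk1 gave 0.58 and -0.013 without FoxM1-dNdK 1 and 2. The intervals were wide: for Fbxo32 the 95% interval ran from -0.54 to 0.92 and for Trim63 from -2.51 to 4.21. Leaving out the 3 libraries with heart RNA left 1 FoxM1-dNdK library, at 26.7 CPM of Atg3, against 2 Rosa26 libraries at 4.00 and 3.36 CPM. Genotype cannot be told apart there from the 2 sets of libraries described at the end.

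In muscle the same comparison called none of the 28 genes in edgeR or in DESeq2. The smallest adjusted p among them was 0.656. Over all 10491 genes edgeR called 0%, with 792 genes and 2 of the 28 at an unadjusted p under 0.05, and DESeq2 called 7. Ddit4 stood at 63.5, 25.2 and 99.3 CPM in FoxM1-dNdK 1 to 3 and at 26.1, 19.8, 19.8 and 44.0 CPM in Rosa26 1 to 4 (1.22 ± 0.45, unadjusted p = 0.0236, adjusted p = 0.656). The highest of these values was that of the library with fat RNA, and without it the difference was 0.72. Ulk2 stood at 17.4, 25.9 and 16.0 CPM against 38.7, 24.7, 24.8 and 35.9 CPM (-0.62 ± 0.27, unadjusted p = 0.0477, adjusted p = 0.656). Ulk1 stood at 85.5, 121 and 69.0 CPM against 162, 106, 128 and 152 CPM (-0.55 ± 0.25, adjusted p = 0.656). For both ULK genes 1 FoxM1-dNdK library lay within the range of the Rosa26 libraries. Ctsl, Gabarapl1 and Fbxo31 followed (0.44 ± 0.28, 0.31 ± 0.20 and -0.46 ± 0.32, adjusted p of 0.733 to 0.762). Without FoxM1-dNdK 1 Ctsl gave 0.23, Gabarapl1 0.16 and Fbxo31 -0.71, and without FoxM1-dNdK 3 Fbxo31 gave -0.16. Atg12, named after its values were seen, was the 1 gene of the 28 whose groups did not overlap, against 5.99% of all genes, at 20.5 to 24.0 CPM in FoxM1-dNdK and 17.4 to 20.2 CPM in Rosa26 (0.25 ± 0.20, adjusted p = 0.803).

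Single libraries set much of the spread in muscle. Muscle FoxM1-dNdK 1 had the highest Fbxo32 of the 7 muscle libraries, 1078 CPM against 292 to 514 CPM, and the highest Trim63, 958 CPM against 396 to 627 CPM. It also had the highest Klf15, at 71.6 CPM, while the other 6 had 27.6 CPM or more in 4 libraries and 17.7 and 24.1 CPM in the remaining 2. In all, 9 of the 28 genes (32.1%) were highest in that library, against 19.3% of all genes tested. Another 7 (25%) were lowest in it, against 24.8% of all genes: Fbxo30 (13.2 CPM against 16.8 to 33.8), Fbxo21 (20.9 against 22.4 to 87.3), Atg3, Sqstm1, Nbr1, Ctsb and Lamp1. It differed in its markers too. The sum of 8 B and plasma cell markers was 157 CPM against 3.13 to 22.1 in the other 6, that of 7 slow fibre markers 395 against 105 to 221, and that of 12 macrophage markers 281 against 86.6 to 202 CPM. Endothelial markers summed to 644 CPM against 350.1 to 509, and fibroblast markers to 504 against 824 to 1409 CPM. Of the 11 skeletal muscle markers, Actn3 was lowest in that library, at 9091 against 12972 to 19785 CPM. Tnnt3 (82776 against 50364 to 73160 CPM), Tnni2 (41546 against 19183 to 33678) and Pvalb (38781 against 17952 to 31066) were highest in it. The rest of these markers, and the sum of all 11, 348797 CPM, lay within the range of the other muscle libraries. The part of these cell types in its Fbxo32 and Trim63 was not tested. With all 7 libraries the genotypes differed in Fbxo32 and Trim63 by 0.32 ± 0.43 and 0.32 ± 0.33 (log2, 95% intervals -0.53 to 1.17 and -0.33 to 0.97). Muscle FoxM1-dNdK 3, the library with fat RNA, had the highest Foxo1 (96.5 CPM against 25.6 to 39.9), Fbxo21 (87.3 against 20.9 to 58.3), Ddit4 and Ctsb (914 against 201 to 608), and also the highest Atg12, Map1lc3a and Nbr1. These 7 are 25% of the 28 genes, against 22.5% of all genes tested. It had the lowest Tfeb, Ulk1, Ulk2, Pink1, Fbxo31 and Foxo3 of the 7, and the share of all genes lowest in it was not computed. Of these 13 genes, 7 differed the same way between aorta and muscle of Rosa26 mice (Fbxo21 and the 6 lowest), 2 the opposite way (Map1lc3a and Nbr1), and 4 did not pass there. The same shares over all genes were not computed, so these counts are no result about the 28 genes. Muscle FoxM1-dNdK 3 also had the lowest sum of the 11 skeletal muscle markers, 218747 CPM against 292273 to 349775 CPM in the other muscle libraries. The part of fat RNA in the levels of the 13 genes was not tested.

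**Figure D4:**
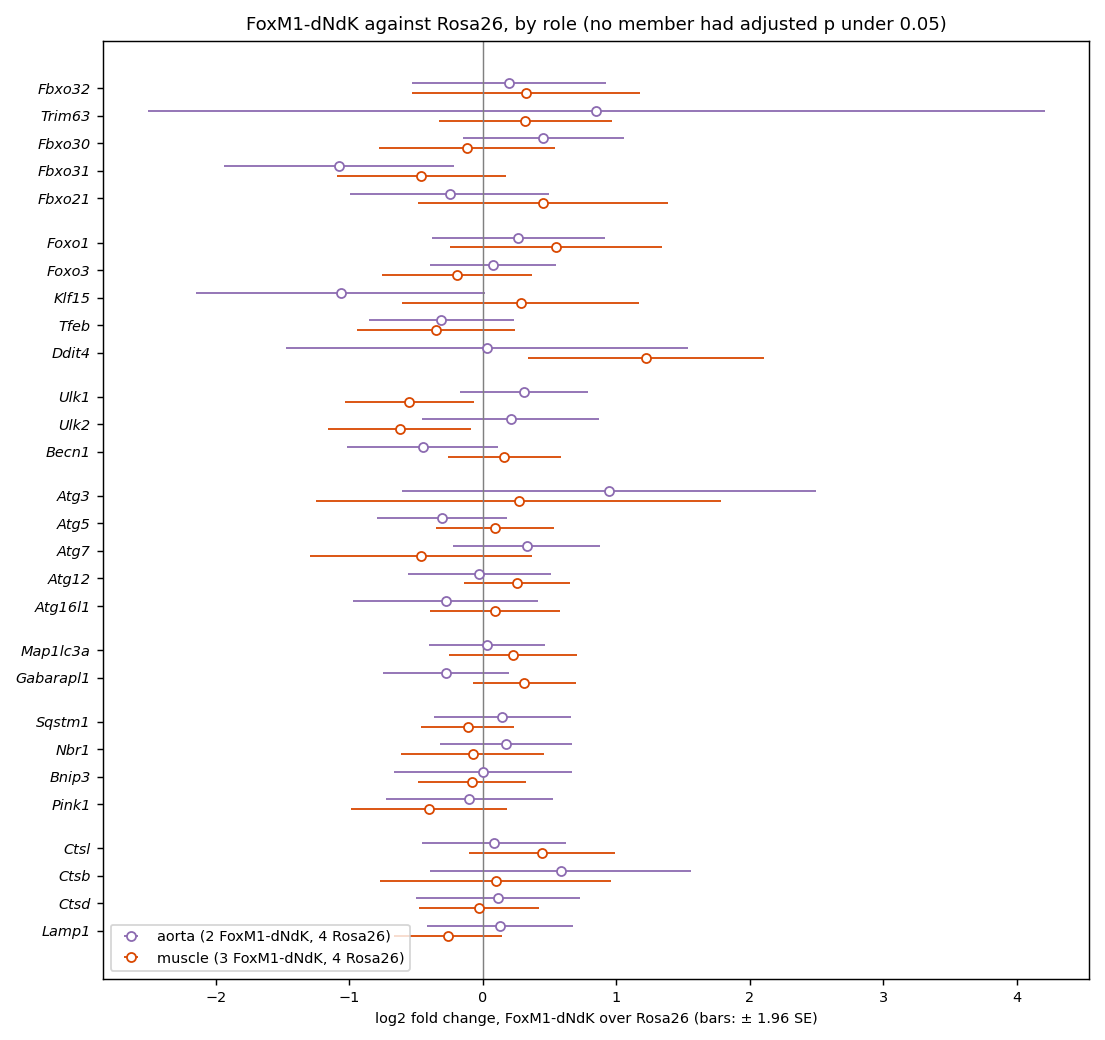
Log2 fold change of FoxM1-dNdK over Rosa26 (horizontal axis) with its normal 95% interval, for the 28 tested genes in order of their roles, in aorta and in muscle. A normal interval can leave out 0 where the unadjusted p of the test is above 0.05, as for Ulk1 in muscle. No point has an adjusted p under 0.05, and the widest interval is that of Trim63 in aorta, from -2.51 to 4.21.

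The difference of the genotype effect between the tissues was tested in 1 fit of all 13 libraries. None of the 28 genes passed in edgeR or in DESeq2. Over all 12318 genes edgeR called 0%, with 1044 genes and 1 of the 28 at an unadjusted p under 0.05, and DESeq2 called 6. The 6 genes of smallest p were Ulk1 (0.89 ± 0.36), Ulk2 (0.85 ± 0.41), Gabarapl1 (-0.56 ± 0.31), Klf15 (-1.33 ± 0.78), Becn1 (-0.59 ± 0.36) and Atg7 (0.82 ± 0.56). Their adjusted p ran from 0.583 to 0.681. A positive value means a more positive log2 difference in aorta than in muscle: Ulk1 gave 0.31 in aorta and -0.55 in muscle, and Ulk2 0.21 and -0.62. The genotype and tissue comparisons share libraries, so these values and those above are not independent of each other.

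Part of the spread within groups went with the share of reads left unmapped. It was 5.81% to 7.45% in aorta Rosa26 3 and 4, muscle Rosa26 1 and 4 and muscle FoxM1-dNdK 1, and 4.62% to 5.62% in the other 8 libraries. The line between them, at 5.7%, was drawn after the data had been seen and is no batch named in the labels. The gap there, from 5.62% to 5.81%, is not the widest. The 4 pairs of an aorta and a muscle library that share a number in their deposited names lay on the same side, at 7.21% and 6.47%, 7.45% and 5.81%, 5.62% and 5.23%, and 4.75% and 5.18%. The 5 libraries above the line thus hold 3 numbers and the 8 below it 6. Atg3 stood at 4.00 and 3.36 CPM in the 2 aorta libraries above it and at 24.7 to 33.1 CPM in the 4 below it. In muscle it stood at 4.67, 5.50 and 2.87 CPM in the 3 above and at 23.7 to 28.2 CPM in the 4 below. Atg3 thus split the 13 libraries without overlap in both tissues. Within groups of tissue and genotype the fitted difference was 6.44-fold. The values of Atg3 were known when the line was drawn and the fit takes libraries that share a number as independent, so no p is given and the sizes here are descriptions. By the call rule used above, 3 of the 28 genes would be higher (Atg16l1, Klf15 and Becn1) and 2 lower (Atg3 and Nbr1) in the libraries above the line, beside 6.16% and 7.01% of all genes. Atg16l1 stood at 67.0 to 97.6 CPM above the line and 41.4 to 60.4 CPM below it. Nbr1, Klf15 and Becn1 gave log2 differences of -0.57, 1.05 and 0.47. In each tissue alone, Atg3 was the 1 gene of the 28 past that rule. Ctsb stood at 313 CPM in aorta Rosa26 3, against 1025 to 1630 CPM in the other aorta libraries. No FoxM1-dNdK aorta library lay above the line, so in aorta the genotype and this split overlap in part. With the split as a covariate, none of the 28 genes was called for genotype in either tissue. Whether the split reflects a sequencing run, RNA quality or the animals cannot be told apart here.

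**Figure D5:**
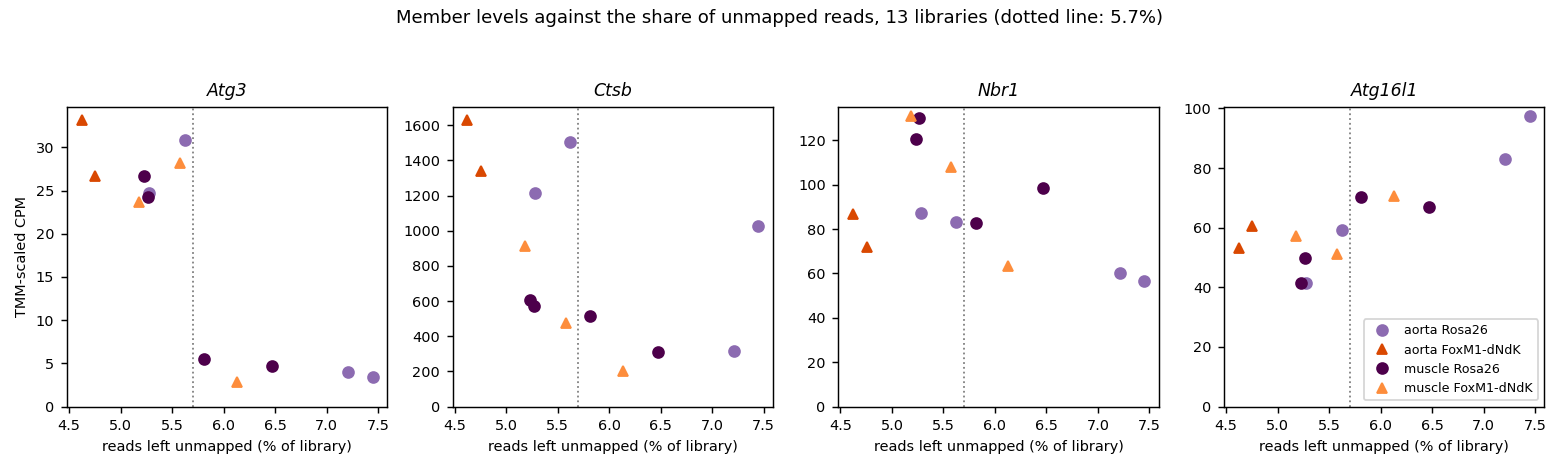
TMM-scaled CPM of Atg3, Ctsb, Nbr1 and Atg16l1 (vertical axes, from 0) against the share of reads left unmapped in each of the 13 libraries (horizontal axis, percent). Atg3 is at 2.87 to 5.50 CPM in the 5 libraries right of the dotted line and at 23.7 to 33.1 CPM in the 8 left of it, in both tissues and genotypes.

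The other genes of these pathways were taken from 6 lists. In Rosa26 mice 119 of their genes were tested. Of these 43.7% were lower in aorta and 17.6% higher, beside 27.5% and 31% of all genes. Counts with library size alone are also given below. Under that scaling most of the called genes among all genes were higher in aorta, as described above. The counts with library size alone are thus no result about these lists. Of 17 other ligase and ubiquitin genes, 14 were lower in aorta and 0 higher (9 lower with library size alone). They include Ube2d1, a conjugating enzyme, at 897 to 1199 CPM in Rosa26 muscle and 27.3 to 41.3 CPM in Rosa26 aorta, and Asb2, a muscle ligase subunit that rises when muscle wastes (-6.84 ± 0.66). Of 14 upstream signals of atrophy, 9 were lower and 1 higher (4 and 4 with library size alone). Mstn, the muscle growth inhibitor myostatin, stood at 115 to 197 CPM in muscle and at no more than 0.112 CPM in aorta, below the floor, while its receptor Acvr2b and the mediator Smad3 gave -2.99 ± 0.28 and -3.07 ± 0.22. Of 21 other FOXO and mTOR pathway genes, 12 were lower and 5 higher (5 and 9 with library size alone), with Prkaa2, the AMPK catalytic subunit of muscle, at -3.91 ± 0.22. Of 26 other genes of the autophagy machinery, 8 (30.8%) were lower, a share near that of all genes, and 3 higher (3 and 13 with library size alone). Wipi1 and Atg9a were lower (-2.34 ± 0.21 and -3.06 ± 0.27) and Uvrag higher (1.87 ± 0.30). Of 11 other receptors, 4 were lower and 1 higher (3 and 6 with library size alone), among them Stbd1, a receptor for glycogen (-4.15 ± 0.34). Of 30 other lysosome genes, 11 (36.7%) were higher, again near the share of all genes, and 5 lower (23 and 3 with library size alone). Ctsz, a cathepsin, and Npc2, a lysosomal sterol carrier, were higher (3.33 ± 0.25 and 2.83 ± 0.29), and Gaa, the lysosomal glucosidase, lower (-2.77 ± 0.21). In aorta and in muscle no gene of the 6 lists was called for genotype in edgeR.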

How the data were processed

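RNA of aorta and gastrocnemius was measured in 13 libraries with an AmpliSeq mouse transcriptome panel on Ion Torrent, per the labels' protocols. The deposited values are raw read counts per gene with 4 columns as STAR writes them. STAR 2.5.2b, the build mm10 (GRCm38.p6), edgeR 3.28.1 and limma 3.42.2 are named per the submitters' processing notes, with no role given. The count column that joins both strands was used, since reads fell on both strands, so antisense partners cannot be told apart. The lines for reads given to no gene were left out, and 86.7% to 91.4% of reads remained. No molecular identifiers are recorded, and the counting intervals of the pooled ratios of Trim63 and Fbxo32 cover counting error only.

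Each comparison was fitted with edgeR 4.0.16 (R 4.3.3): TMM scaling, filterByExpr with a minimum count of 10 and a minimum total of 15, the quasi-likelihood test, and Benjamini-Hochberg adjustment over all genes tested, with a threshold of 0.05. Every adjusted p in the text is from that test unless DESeq2 (1.42.0) is named. The SE is the log2 difference divided by the square root of F and includes the spread between libraries. The 95% intervals of log2 differences are normal ones from that SE, and are narrower than intervals with the degrees of freedom of the test. The fits were also run on simulated counts of independent libraries with 1 mean profile. That simulation had no heart or fat RNA and no split by unmapped reads, so it does not show how the fits behave on these data. The 32 genes and the other lists were chosen with earlier results of these data known. Both tissue comparisons cover every tested gene of the 32. For genotype and interaction the genes past the threshold and the 6 with the smallest p are named, and for other lists up to 3 genes past the threshold with the smallest p.

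A number in the deposited names is shared by 4 pairs of an aorta and a muscle library, and the deviations of each pair from their group means correlated over 12318 genes (Pearson r of 0.257, 0.311, 0.241 and 0.142). All 4 pairs also lie on 1 side of the line drawn at 5.7% unmapped reads, so the correlations cannot be told apart from that split. Alternatives were other scalings, no filter, DESeq2, 1 fit of all libraries, blocks, libraries left out, and, chosen after seeing the data, the side of the 5.7% line in unmapped reads as a covariate or a restriction.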

Additional observations from a re-analysis of the deposited data

Results flagged for a closer look

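In each group of 4 libraries, the highest and the lowest level of each of the 28 tested genes were compared with the others by Dixon's gap test. Of 56 pairs of gene and group, 2 had a library that stood apart, and chance gives about 1 in 20. Fbxo31 was at 35.5 CPM in aorta Rosa26 2, against 14.2 to 16.8 CPM in the other Rosa26 aorta libraries. Lamp1 was at 478 CPM in aorta Rosa26 1, against 278 to 302 CPM in the others. Both libraries are among the 3 aorta libraries with heart muscle RNA, whose part in these values was not tested.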

How the results depend on the processing

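Fbxo32, Trim63, Tfeb, Sqstm1, Pink1, Ulk1, Ulk2, Gabarapl1 and Fbxo21 kept their call between the tissues of Rosa26 mice in all 19 alternatives. The cause of the changes that follow was not tested. Calls in FoxM1-dNdK mice depend on each of 5 libraries, and genotype on 2 against 4 and 3 against 4.

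In Rosa26 mice (aorta over muscle), library size alone turned Lamp1 to 0.19, Nbr1 to 0.29, Klf15 to 0.52 and Becn1 to 0.82. Without a filter Foxo1 was -0.00043 and Atg3 -0.00077, and in DESeq2 they were -0.00012 and -0.0044. With the side of the 5.7% line in unmapped reads as a covariate they were -0.0041 and -0.11. In libraries below 5.7% unmapped reads Ddit4 was -0.12, Ctsl -0.33 and Foxo1 -0.25. In those above, Klf15 was 0.0048, Becn1 0.036, Atg12 -0.18 and Atg3 -0.43. Without the libraries with heart RNA Klf15 was 0.15, Becn1 0.17, Atg12 -0.30 and Atg3 -2.06, and Atg3 and Ddit4 passed the threshold. With a block on the shared number in the deposited names, Becn1 was 0.062, Atg12 -0.017 and Atg3 -0.17, and apart from Lamp1 no call among the 28 genes changed. Leaving out 1 library at a time gave Atg12 -0.083 to 0.11, Atg3 -0.50 to 0.43, Becn1 -0.23 to 0.099, Ddit4 -0.12 to 0.87 and Foxo1 -0.12 to 0.13.

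In FoxM1-dNdK mice, library size alone turned Ulk1 to 0.047, Fbxo30 to 0.076, Nbr1 to 0.25, Atg12 to 0.37, Lamp1 to 0.31, Ctsl to 0.44, Atg5 to 0.48, Foxo1 to 0.30 and Atg16l1 to 0.56. The number of the 28 genes called, 6, became 10 in DESeq2, 3 with the side of the 5.7% line as a covariate and 3 in libraries below 5.7%. With that covariate Ctsl was 0.045, Atg5 0.0099 and Atg16l1 0.12, and below 5.7% they were 0.045, 0.010 and 0.12. Only muscle FoxM1-dNdK 1 among these libraries lies above that line. The covariate and the restriction thus both amount to leaving it out, and are not separate alternatives. Leaving out 1 library at a time gave 1 (Trim63, without aorta FoxM1-dNdK 1 or 2) to 10 called genes, and Atg16l1 -0.15 to 0.12, Atg5 -0.23 to 0.01, Ctsl -0.35 to 0.045, Ddit4 -2.27 to 0.12 and Foxo1 -0.70 to 0.55. Of all genes, 1801 were called, against 3141 in DESeq2, 3334 in 1 fit of all libraries and 322 to 3126 with 1 library left out.

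For genotype in aorta, 1 of the 28 genes (Atg3) was called without the libraries with heart RNA, in a fit of 1 FoxM1-dNdK library assumed to vary like the others. Ulk1 was -0.015 there, and with 1 library left out Ulk1 ran from -0.013 to 0.58. Of all genes 1 was called, against 13 in DESeq2, 3 with the covariate, 179 below 5.7%, 30 without heart RNA, 0 in 1 fit of all libraries and 0 to 1 with 1 library left out. In muscle, 2 of the 28 (Fbxo32 and Trim63) were called above 5.7%, where the lone FoxM1-dNdK library is the one with the highest levels of both, and Fbxo31 was 0.026. These fits with 1 library on a side do not bear on genotype. Of all genes 0 were called, against 7 in DESeq2, 494 above 5.7% and 3 without muscle FoxM1-dNdK 1. For the interaction DESeq2 called 6 genes and edgeR 0. The counts for the split by unmapped reads describe a line drawn with these values known and shared by every alternative, and are no test. There 1 of the 28 was called in aorta alone and 1 in muscle alone, and 3 to 6 with 1 library left out (3 without aorta Rosa26 3, muscle Rosa26 3 or muscle FoxM1-dNdK 1). Of all genes 1623 were called, against 867 in aorta alone, 8 in muscle alone and 1031 to 1826 with 1 library left out.

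Libraries of different groups with the same replicate number in the titles, pairs across genotypes included, gave r of -0.34 to 0.29 over genes. Of these pairs, only aorta and muscle Rosa26 4 also share a number in the deposited names (r = 0.241). With a replicate block on the numbers in the titles, 13 of the 28 genes were called between the tissues of FoxM1-dNdK mice, with Foxo1 at 0.51, and 3035 of all genes. With that block Atg3 was -0.21 in Rosa26 mice, and 163 genes, none of the 28, were called for genotype in aorta.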

Other observations

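The split by unmapped reads, drawn after the data had been seen, also ran through other genes of these pathways, which were named here after their values were seen. Tax1bp1, a cargo receptor, stood at 31.8 and 63.3 CPM in the 2 aorta libraries above 5.7% and at 116 to 148 CPM in the 4 below, and in muscle at 27.8 to 55.9 CPM in the 3 above and 74.5 to 96.4 CPM in the 4 below. Retreg1, a receptor for the autophagy of endoplasmic reticulum, stood at 3.24 and 5.89 CPM against 42.0 to 56.1 CPM in aorta. In muscle it stood at 114 to 218 CPM above the line, and at 482, 577 and 581 CPM below it but 164 CPM in FoxM1-dNdK 3, the library with fat RNA. By the call rule of the report, 13 (10.7%) of the 121 tested genes of the 6 lists would be higher and 16 (13.2%) lower above the line, beside 6.16% and 7.01% of all genes. These counts describe libraries sorted after the fact and are no test.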
